A study of Mus musculus with 4 samples.

Results

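In chromatin of the mouse genital tubercle, the embryonic bud of the external genitalia, 1016 of the 6834 regions called for the transcription factor Isl1 in both replicates (14.9%, Wilson 95% interval 14.0 to 15.7%) lay inside genes at least 300 kb long. Such genes are few, 557 of 21887 protein-coding genes (2.54%), but they take up much space. Together they covered 317 Mb, against 715 Mb covered by shorter genes alone and 1659 Mb outside genes. The 14.9% is to be set beside this territory, not beside the 2.54% of genes. The regions were chosen by the peak calls themselves and by position. A shared region joined overlapping peaks of the 2 replicates (at least 1 bp), its centre was the midpoint of the longest overlap, and it was kept where the centre fell inside a RefSeq protein-coding gene, over 1 kb from any protein-coding gene end, with the longest such gene at least 300 kb long. Of the other shared regions, 1504 (22.0%) lay inside shorter genes, 932 (13.6%) within 1 kb of a gene end and 3382 (49.5%) outside genes. The number of regions, their scores and their spacing therefore describe the calls and carry no test, and regions are not replicates of a condition.

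The study mapped Isl1 by ChIP-seq, in which DNA bound by a protein is pulled down with an antibody and sequenced, using a rabbit monoclonal antibody against ISL1 in tubercles of wild-type CD1 embryos at E14.5 (the embryonic day). The Isl1_ChIP group held 2 samples with 1 peak list each, of 8860 and 10162 peaks. The Input_DNA group held 2 samples of sheared chromatin that are not analysed here. No treatment or mutant was part of the series, and nothing in the labels ties a sample to 1 animal or sex. The lists give a position and a score for each peak but no read counts, so the depth behind each value is unknown. Each replicate stands below with its own values, and Wilson and exact Poisson 95% intervals cover counting error alone.

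Isl1 is a LIM-homeodomain protein: its homeodomain reads AT-rich DNA around a TAAT core, and its LIM domains join it to partner proteins. Much of the length of a very long gene is intron, and introns can hold enhancers of the gene itself or of a neighbour, alternative start sites, microRNAs and other nested genes. Many very long genes code for adhesion proteins, receptors, channels and scaffolds best known from neurons. A position inside a gene does not say which gene a site acts on.

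Few of the regions touched an annotated start of transcription, and sequences are shown for 6 of the 14 that did. Of these, 5 were picked because the results below turn on their genes and the Rsrc1 stretch for its motif, so the 6 do not stand for all 14. Windows of 300 bases, with 250 bases before and 50 after the start site, came from RefSeq (GRCm38.p6, whose coordinates are those of mm10). Each line holds the bases before the start site that lay inside the Isl1 region, 5′ to 3′ on the strand of the gene that starts there, with each TAAT or ATTA, the homeodomain core on either strand, in capitals. The Dnm3os stretch (plus strand, chr1:162217373-162217622) belongs to an antisense RNA inside Dnm3. The Robo1 stretch (plus strand, chr16:72662899-72663148) lies at a start inside Robo1, as the Pde4b stretch (plus strand, chr4:102569907-102570059) does inside Pde4b and the Cntnap2 stretch (plus strand, chr6:47244241-47244395) does inside Cntnap2. The region at the Robo1 start also overlapped start windows of Gm29908, a long noncoding RNA on the minus strand. Starts of Gm29908 lay 44, 73 and 288 bases from the region's centre, and the Robo1 start 156 bases. The Gm32703 stretch (minus strand, chr13:109440927-109441088) is the start of a long noncoding RNA inside Pde4d. The Rsrc1 stretch (plus strand, chr3:66985563-66985661) holds CTAATG, the form of the core searched as the Isl1 type.
Dnm3os: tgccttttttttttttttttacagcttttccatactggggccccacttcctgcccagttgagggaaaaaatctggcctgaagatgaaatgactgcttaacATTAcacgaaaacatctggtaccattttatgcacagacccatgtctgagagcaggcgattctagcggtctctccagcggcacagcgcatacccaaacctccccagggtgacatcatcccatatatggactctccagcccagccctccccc
Robo1: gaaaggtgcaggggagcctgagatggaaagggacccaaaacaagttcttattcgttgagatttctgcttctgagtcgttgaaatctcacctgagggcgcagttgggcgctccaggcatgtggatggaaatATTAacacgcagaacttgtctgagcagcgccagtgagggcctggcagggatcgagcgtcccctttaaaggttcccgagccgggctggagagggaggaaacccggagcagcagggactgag
Pde4b: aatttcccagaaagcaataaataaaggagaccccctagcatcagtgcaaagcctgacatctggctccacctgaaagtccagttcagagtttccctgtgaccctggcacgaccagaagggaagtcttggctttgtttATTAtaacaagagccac
Cntnap2: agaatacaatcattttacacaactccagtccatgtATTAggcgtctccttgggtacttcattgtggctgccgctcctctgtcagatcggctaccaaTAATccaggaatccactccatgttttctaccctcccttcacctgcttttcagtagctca
Gm32703: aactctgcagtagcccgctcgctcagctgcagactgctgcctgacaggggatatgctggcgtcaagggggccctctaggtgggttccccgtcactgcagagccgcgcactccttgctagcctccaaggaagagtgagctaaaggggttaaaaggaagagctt
Rsrc1: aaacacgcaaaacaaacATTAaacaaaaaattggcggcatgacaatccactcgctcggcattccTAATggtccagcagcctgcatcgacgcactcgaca

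In all, 14 of the 1016 regions (1.38%) overlapped 1 of the 32851 annotated start windows, against 89 regions inside shorter genes (5.92%), 598 at gene ends (64.2%) and 33 outside genes (0.976%). In 9 of the 14 a start belonged to the long gene itself, and in the other 5 only to another gene. The 14 differed widely in score. The region at Pde4b scored 721 in replicate 1 and 608 in replicate 2, the region at Gm32703 inside Pde4d scored 612 and 742, and the region at Robo1 scored 649 and 553. The region at Cntnap2 scored 186 and 206, that at Rsrc1 253 and 171, and that at Dnm3os 150 and 74. The weakest, at a start of Cacnb2, a calcium-channel subunit, scored 43 and 51. Median scores were 254.5 in replicate 1 and 205 in replicate 2 for the 14, against 96 and 118 for the regions without an annotated start. None of the 12 highest-ranked regions overlapped a start window. TAAT or ATTA occurred in 6 of the 14 stretches before the start that lay inside a region, and 5 of those 6 are among the sequences shown. Over whole windows, which include bases outside the regions, it occurred in 10 of the 14 (71.4%), against 58.0% of all 32851 windows, and CTAATG or its reverse complement CATTAG in 2 (14.3%), against 7.36%. The 2 were the windows of Rsrc1 and of Gm51500, a noncoding RNA inside Adam12, of whose window the region covered 12 bases. The windows' median GC content was 52.7% in both sets, and a match of letters is a description of the window, not of binding.

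The Dnm3os start stands beside 2 microRNA hairpins. Dnm3 codes for dynamin-3, a GTPase of membrane scission, and Dnm3os is transcribed from the opposite strand and is the precursor of miR-199a-2 and miR-214, microRNAs known from mesenchyme. The centre of the region lay 0.452 kb from the Mir199a-2 hairpin and 6.01 kb from Mir214, and the region covered the whole 300-base start window of Dnm3os. A second group lay in Aopep, an aminopeptidase gene, where a region scoring 205 in replicate 1 and 203 in replicate 2 was 10.9 to 11.6 kb from the hairpins Mir23b, Mir27b, Mir24-1 and Mir3074-1. Mature sequences of 5 arms from these 2 groups, from RefSeq, are given here to show their seeds, 5′ to 3′ with the seed (bases 2 to 8) in capitals. No pair of them shares a seed.
mmu-miR-199a-5p: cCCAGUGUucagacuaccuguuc
mmu-miR-199a-3p: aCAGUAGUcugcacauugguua
mmu-miR-214-3p: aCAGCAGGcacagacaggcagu
mmu-miR-27b-3p: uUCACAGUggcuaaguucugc
mmu-miR-24-3p: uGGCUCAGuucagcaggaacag

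Of the 57 microRNA hairpins inside long genes, 39 lay in a gene with an Isl1 region, and 65.9% of all long genes held one. The hairpin count is thus near the share of all long genes. Within 20 kb of a region lay 12 hairpins, in 8 genes. No background was computed for this distance, and the Aopep hairpins stand beside the same region. Others of the 12 were Mir5110 in Bcas3, 5.20 kb from a region scoring 170 and 236, and Mir204 in Trpm3, 13.6 kb from a region scoring 166 and 142. Long noncoding RNA genes held 54 of the regions inside long genes (5.31%), against 5.85% of those inside shorter genes, 8.26% of those at gene ends and 17.1% of those outside protein-coding genes.

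The regions inside long genes scored like those elsewhere away from gene ends. Their median score was 96 in replicate 1 (quartiles 61 and 161) and 118 in replicate 2 (77 and 196), against 102 and 121 inside shorter genes, 93 and 118 outside genes, and 253 and 239 at gene ends. In both replicates the gene-end median was more than 2 times that of the long-gene regions, and the 2 medians away from gene ends lay within 6 points of theirs. The replicates ranked the long-gene regions with a Spearman correlation of 0.647 (n = 1016 regions, which share 2 libraries), against 0.691 inside shorter genes, 0.882 at gene ends and 0.663 outside genes. Median widths were 260.5 bp inside long genes, 248 bp inside shorter genes, 201.5 bp at gene ends and 259 bp outside genes.

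**Figure D1:**
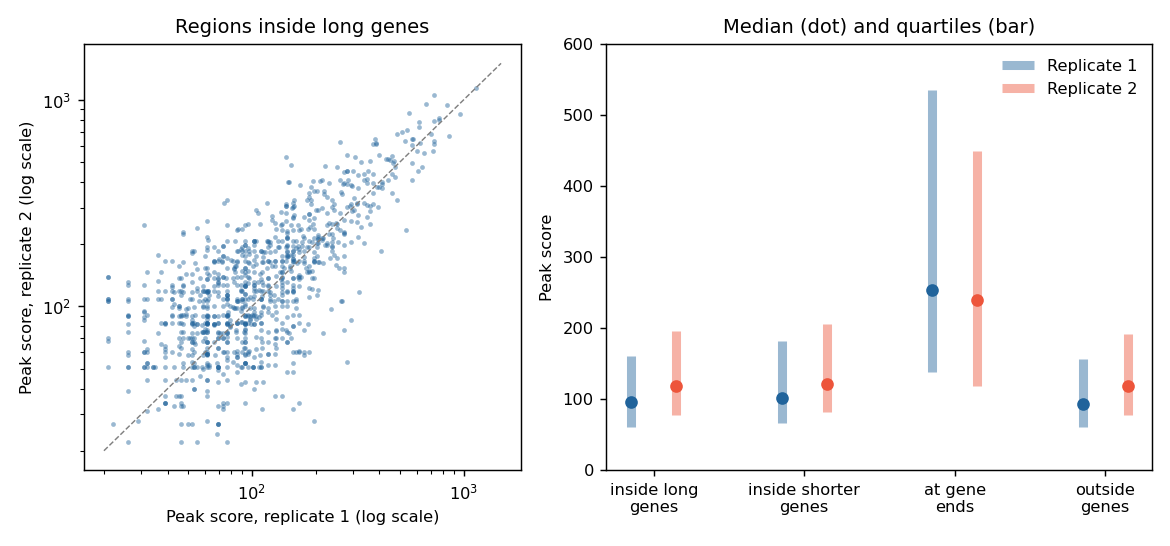
The left panel plots the authors' peak score in replicate 2 against replicate 1 for each of the 1016 regions inside long genes (both axes on a log scale, dashed line: equal scores). The right panel gives the median score (dots) and the quartiles (bars) in each replicate for the 4 location classes; gene ends, with medians of 253 and 239, stand above the other 3 classes in both replicates.

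The share of calls found in both lists was also close to that of all peaks. In replicate 1, 1304 peaks lay inside long genes and 79.3% of them were shared, against 78.5% of the whole list. In replicate 2, 1547 peaks lay inside long genes and 66.7% were shared, against 68.3% of the whole list. The unshared peaks were weak: the 270 of replicate 1 had a median score of 55, and the 515 of replicate 2 a median of 60.

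The strongest region inside a long gene lay in Magi2, a membrane-associated scaffold of cell junctions and synapses (chr5:20133917-20134408). It scored 1138 in each replicate, and it lay 571 kb from the nearest gene end. The next were in Smyd3, a lysine methyltransferase gene (chr1:179147013-179147555), which scored 961 in replicate 1 and 854 in replicate 2, and in Rims1, a scaffold of the presynaptic active zone (chr1:22330510-22331199), which scored 833 and 940. Robo2, a receptor for Slit guidance proteins, held the fourth (chr16:74651313-74651767), with 763 and 814, and Sorcs1, a sorting receptor of the Vps10p family, the fifth (chr19:50611509-50612226), with 763 and 795. All 5 were among the high-scoring peaks of both lists, and 3 of them had another shared region within 5 kb. The remaining 7 of the 12 highest lay in Adk (adenosine kinase, 726 and 1051), Unc5c (a netrin receptor, 720 and 787), Col19a1 (a fibril-associated collagen, 703 and 686), Pde4b (a cyclic AMP phosphodiesterase, 849 and 669), Tiam1 (a Rac activator, 661 and 956), Oxr1 (an oxidation-resistance protein, 726 and 632) and Agap1 (an Arf GTPase-activating protein, 621 and 614). At the other end, the lowest-ranked regions, in Dnm3, Cep112 and Zbtb20, scored 21 in replicate 1 and 68, 139 and 51 in replicate 2.

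Regions near the limits of the choice varied in score. Zfp423, a zinc-finger gene of 300.244 kb, was the host nearest the length limit, and its 3 regions scored 69 to 156 in replicate 1 and 63 to 247 in replicate 2. Akap13, a kinase-anchoring protein gene of 299.084 kb, was the nearest host left out. The 3 of its regions examined, which need not be all, scored 47 to 405 and 94 to 453. At the 1 kb limit, a region of Agbl4 at 1.157 kb from a gene end (320 and 117) was in, and a region of Glis3 at 0.618 kb (52 and 59) was out. The Agbl4 region overlapped a start window of Bend5, so the 1 kb limit did not remove every annotated start.

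Regions inside long genes were spread over many hosts and concentrated in some. At least 1 region was found in 367 of the 557 long genes (65.9%). At least 1 replicate 1 peak was found in 71.3% of them, and at least 1 replicate 2 peak in 75.2%. Of the hosts, 136 held 1 region, 98 held 2, 54 held 3, 28 held 4 and 51 held 5 or more. Among the 190 others, 121 had no peak of either list. The count of regions was only weakly related to length across the 557 genes (Spearman correlation 0.199, n = 557 genes, a description).

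The 15 genes with most regions held 191 regions, 18.8% of all those inside long genes, on 3.76% of the long-gene territory. They do not form 1 functional family. Dnm3 held 20 regions, from 23 peaks of replicate 1 and 25 of replicate 2. The Slit receptors Robo2 and Robo1 held 18 (19 and 21 peaks) and 13 (15 and 13 peaks). Smyd3 held 16 (17 and 21 peaks), and Adk 14 (16 and 17 peaks). Erc2, a presynaptic scaffold, also held 14 (20 and 18 peaks). These counts were high in each list alone. Vps13b, a lipid-transfer protein of the Golgi, held 13 regions (16 and 18 peaks), and Cacna2d3, an auxiliary calcium-channel subunit, held 12 (14 and 14 peaks). Arhgap15 (a Rac GTPase-activating protein), Macrod2 (an ADP-ribosylhydrolase) and Rad51b (a recombination protein) held 11 each. Adamtsl1 (a matrix glycoprotein) and Cep112 (a centrosomal protein) held 10 each, and Kcnma1 (the BK potassium channel) and Palld (an actin scaffold) held 9 each. For some of these the replicate 2 list alone was much fuller: it held 19 peaks each in Macrod2 and Rad51b, 16 in Adamtsl1 and 14 in Kcnma1, and the replicate 1 list held 14, 13, 12 and 11 in these genes. At the mean density of long genes, 3.21 regions per Mb, these 15 would hold 1.26 to 6.41 regions each. Counting only regions whose lower score was at least 100, Smyd3 held 10, Adk 9, Robo2 and Cacna2d3 7 each, Robo1 6, and Dnm3, Erc2 and Vps13b 5 each, while the other 7 held 2 to 4. Smyd3 and Adk then came first, and most regions of Dnm3 were weak.

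**Figure D2:**
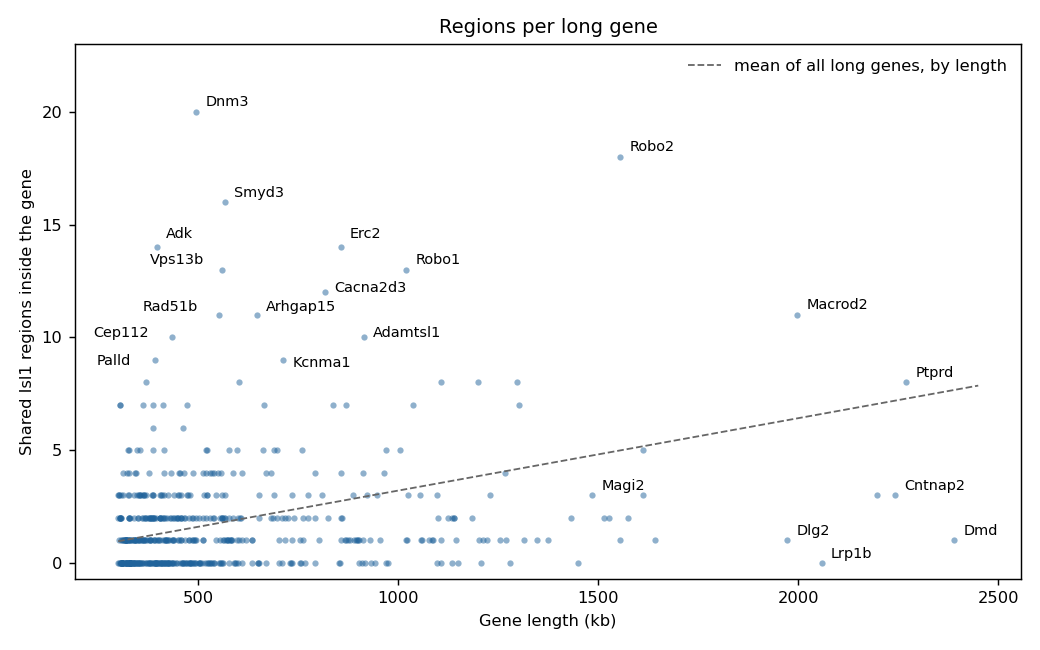
Each point is 1 of the 557 long genes, with its length in kb on the x axis and its shared Isl1 regions on the y axis; the dashed line is the mean of 3.21 regions per Mb of long gene. Dnm3, Smyd3 and Adk lie far above the line at under 600 kb, while Dmd, Dlg2 and Lrp1b lie below it at the right.

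Per unit of length the order was partly different, and Robo2 (1.16 regions per 100 kb), Robo1 (1.27), Cacna2d3 (1.47) and Erc2 (1.64) were not among the 10 densest. Among genes with at least 4 regions, Dnm3 had 4.03 regions per 100 kb, Adk 3.54 and Smyd3 2.83. Vps13b had 2.32 and Palld, Cep112 and Cmss1 2.30 each. Tox, an HMG-box transcription factor, had 2.29, Unc5c 2.17 and Rad51b 2.0. With so few regions per gene the intervals were wide: the exact Poisson interval for the 20 regions of Dnm3 was 12.2 to 30.9, and for the 7 of Tox it was 2.81 to 14.4.

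Most regions stood apart from their neighbours, and the tightest groups differed in strength. The tightest 4 regions of any gene were in Dnm3, in 8.24 kb (chr1:162001224-162009651), and scored 73 to 130 in replicate 1 and 32 to 140 in replicate 2. In Adk, 4 regions within 14.6 kb (chr14:21147070-21162186) scored 203 to 539 and 361 to 715. The Adk group scored above every region of the Dnm3 group in both replicates. Fbxl7 (an F-box protein gene) held 4 in 15.0 kb, Adamtsl1 4 in 18.6 kb and Smyd3 4 in 21.6 kb, the last with its 961 and 854 peak. Over all hosts, 135 of the 652 gaps between neighbouring regions of a gene (20.7%) were at most 10 kb, and the median gap was 52.9 kb. A shared region within 10 kb was found for 24.5% of long-gene regions (22.0 to 27.2%), against 23.1% inside shorter genes, 15.8% at gene ends and 21.5% outside genes. Counting only regions whose lower score was at least 100, it was 12.3% for the long-gene regions.

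Several genes carried their regions mostly on 1 side of the gene's midpoint. Dnm3 held 17 of 20 on the side with the lower coordinates, which is its 3′ side, and Robo1 held 12 of 13 on its upper side, also the 3′ one. Robo2 held 14 of 18 and Kcnma1 8 of 9 on their lower sides, again the 3′ ones. Cep112 held 8 of 10 on its lower side, which is its 5′ side. Vps13b, whose strand was not known here, held 11 of 13 on its upper side. In Adk, Cacna2d3, Macrod2 and Rad51b each side held 5 to 7 regions. Some immediate neighbours are developmental regulators. Wnt5a, a Wnt ligand needed for tubercle outgrowth, lies 26.0 kb beyond Erc2, which held 6 of its 14 regions on that side of its midpoint. Osr2, a zinc-finger transcription factor, lies 67.8 kb from Vps13b, on the side that held 2 regions. Axin2, a feedback inhibitor of Wnt signalling, lies 57.2 kb from Cep112, also on the side that held 2. Which genes these regions act on was not measured.

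**Figure D3:**
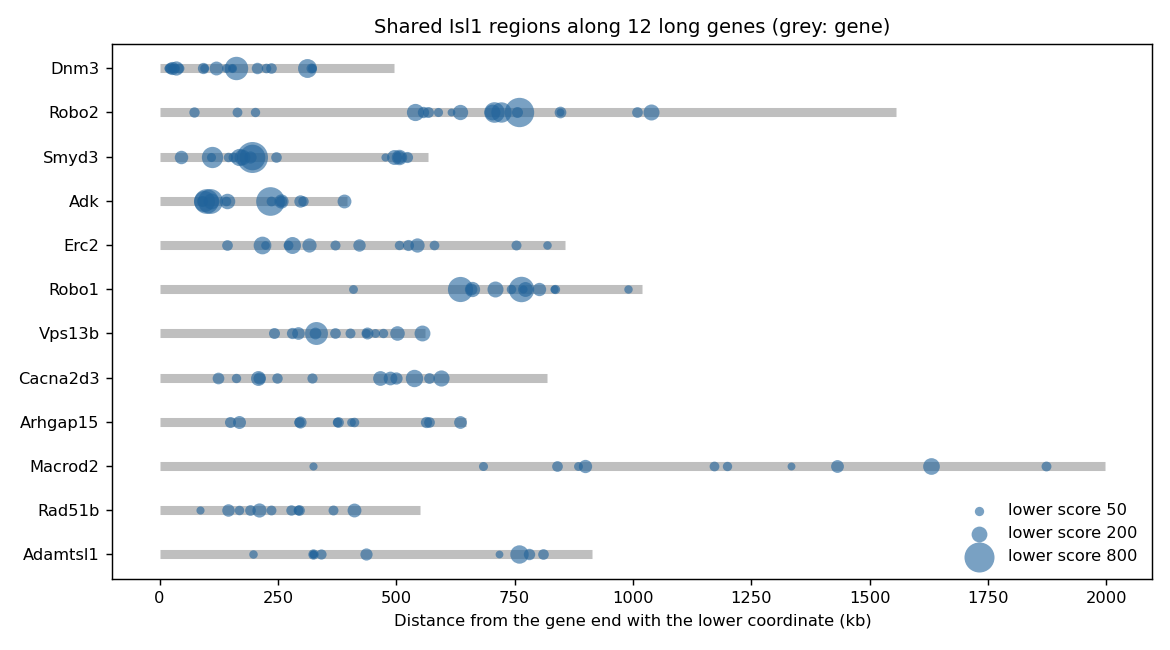
For the 12 long genes with most regions, each grey bar is a gene drawn to its length in kb from the end with the lower coordinate, and each dot is a shared Isl1 region whose area grows with the lower of its 2 scores. Dnm3 and Robo2 carry most of their regions left of the midpoint, Robo1 and Vps13b right of it.

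The 15 genes were also denser than the DNA beside them: inside them lay 16.0 regions per Mb, in the 250 kb on each side 6.93 per Mb, and over the genome 2.54 shared regions per Mb of all 4 classes together. All 15 were denser inside than beside, a direction that their choice for high counts favours. Vps13b, with 9 regions in its flanks, and Rad51b, with 7, had the most beside them, and Dnm3 and Arhgap15, with 1 each, the fewest.

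The density of regions rose with gene length up to 300 to 400 kb and was lower in the longest genes. It was 1.90 per Mb in genes of 50 to 100 kb (Poisson interval 1.71 to 2.12), 2.89 in those of 100 to 200 kb (2.66 to 3.14) and 3.18 in those of 200 to 300 kb (2.84 to 3.54). Above the limit, where density is per summed gene length and not per territory, it was 4.03 at 300 to 400 kb (3.58 to 4.53), 3.50 at 400 to 500 kb, 3.66 at 500 to 750 kb, 2.70 at 750 to 1000 kb and 2.1 at 1000 kb or more (1.80 to 2.45). Peaks of each replicate alone gave 5.33 and 6.18 per Mb at 300 to 400 kb, and 2.70 and 3.43 at 1000 kb or more, the same order in both. The share of genes with a region went the other way, with 58.0% at 300 to 400 kb and 86.4% at 1000 kb or more. Overall long genes held 3.21 regions per Mb (3.01 to 3.41), against 2.1 inside shorter genes (2.0 to 2.21) and 2.04 outside genes (1.97 to 2.11). Regions within 1 kb of gene ends are left out of these counts, which removes a larger part of short genes.

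**Figure D4:**
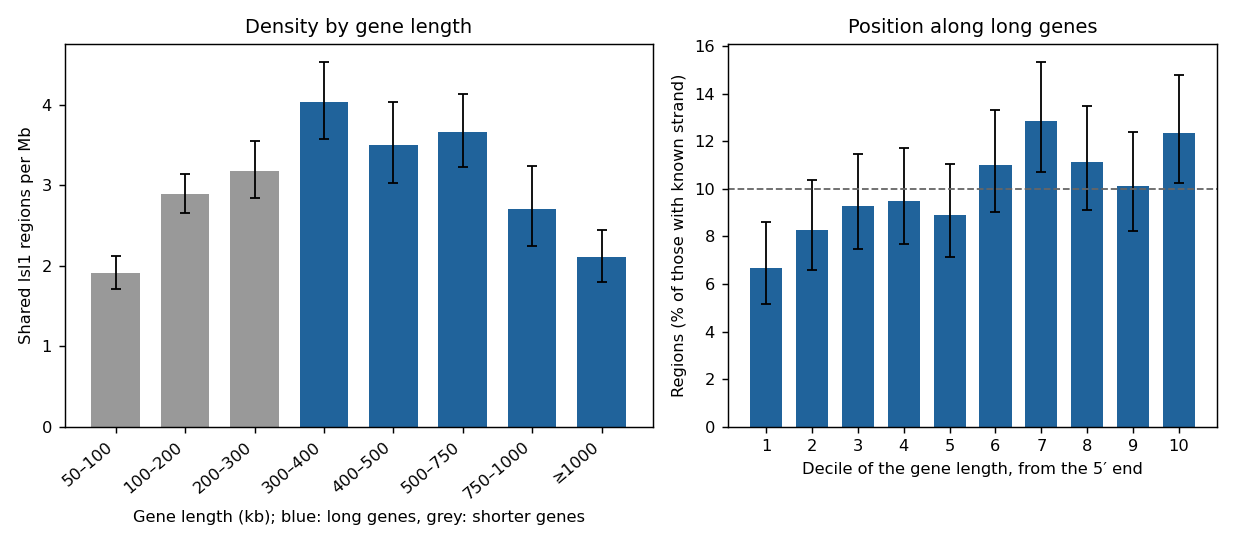
The left panel gives shared Isl1 regions per Mb by gene length (blue: long genes, grey: shorter genes, bars from 0, whiskers: exact Poisson 95% intervals), with the highest bar, 4.03, at 300 to 400 kb. The right panel gives the percentage of the 810 regions in long genes of known strand that fell in each decile of the gene length from its 5′ end (whiskers: Wilson 95% intervals, dashed line: 10%), with 6.67% in the first decile and 12.3% in the last.

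The 10 longest genes showed how uneven the hosts were. Dmd, the dystrophin gene and the longest at 2390 kb, held 1 region, as did Dlg2, a synaptic scaffold, and Csmd1, a complement-control protein. Lrp1b, a lipoprotein receptor, held none. Macrod2 held 11, Ptprd, a receptor phosphatase, 8, and Fhit, a hydrolase at a fragile site, 5. Cntnap2, Lsamp and Nrxn3, all neuronal adhesion proteins, held 3 each. Nkain2, Cdh12, a cadherin, Nrg3, a neuregulin, and Dcc, the netrin receptor, were among the longest genes with no peak of either list. Lrp1b (1 peak of each list), Il1rapl2 (1 peak of replicate 1), Nkain2 and Cdh12 were among the longest with no shared region. A site under the authors' threshold would not appear, so these genes are not shown to be unbound.

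Along the genes the regions leaned away from the 5′ end. Strand was known for 425 long genes with 810 regions. The first decile of the length from the 5′ end held 54 regions (6.67%), the seventh 104 and the last 100 (12.3%). The first 50 kb held 57 regions, or 2.68 per Mb (2.03 to 3.48), the last 50 kb held 91, or 4.28 per Mb (3.45 to 5.26), and the stretch between held 3.27 per Mb. Each list alone had the same order, with 73 replicate 1 peaks in the first 50 kb and 107 in the last, and 83 and 135 replicate 2 peaks. The last 50 kb counted regions of 71 genes, with 7 from Dnm3, and the first 50 kb of 52 genes. Regions within 1 kb of a gene end, where starts lie, are outside the count at both ends.

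Most regions were far from the end of any protein-coding gene, which the 300 kb limit and the 1 kb exclusion favour. The median length of the long genes was 451 kb. The median distance below followed the length limit, with 98.2 kb at a limit of 200 kb and 196 kb at 500 kb. The median distance to the nearest protein-coding gene end was 126 kb (quartiles 59.0 and 212 kb), and 601 regions (59.2%) were more than 100 kb from one. The farthest, in Ptprd (chr4:77259190-77260035), was 952 kb from a gene end and scored 459 in replicate 1 and 534 in replicate 2. Distance and score were nearly unrelated across regions, with Spearman correlations of 0.072 in replicate 1 and 0.050 in replicate 2 (n = 1016 regions each).

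Chromosomes differed in how many regions their long genes held. Long genes of chromosome 19 held 6.08 regions per Mb (4.23 to 8.45), those of chromosome 14, home of Adk, Erc2, Cacna2d3 and Kcnma1, 4.48, and those of chromosome 4 4.29. The chromosome 19 value came from only 10 long genes, with 35 regions. Long genes of chromosome 7 held 1.34 per Mb (0.778 to 2.14) and those of the X chromosome 0.930 (0.508 to 1.56). The X chromosome had 24 long genes, with 14 shared regions from 17 peaks of replicate 1 and 22 of replicate 2. Low counts on the X chromosome were not limited to long genes: it also had the fewest shared regions outside genes, 51, against 69 on chromosome 19. The sex of the embryos is not given in the labels used here, and its part in the X chromosome values was not tested.

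Gene families of known long genes differed in how often and how densely they carried regions. Transcription factors were nearly all hosts: 35 of 37 long ones held at least 1 region (94.6%), against 65.9% of all long genes, and their median was 2 regions, against 1. Their density was 4.82 regions per Mb (3.87 to 5.92), against 3.19 over all long genes counted gene by gene. In replicate 1 alone the family had 7.23 peaks per Mb against 4.10, and in replicate 2 7.71 against 4.86. Auts2, a Polycomb-associated regulator, held 8 regions, the strongest with 193 and 204. Creb5, a basic leucine zipper factor, and Tox held 7 each, the strongest with 282 and 304 and with 572 and 495. Bach2, a basic leucine zipper repressor, held 5. Dach2 and Myt1l held none. Counting only regions whose lower score was at least 100, 22 of the 37 were hosts, against 40.4% of all long genes.

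Of the 10 families, axon guidance had the highest density. It counted 14 hosts of 17 long genes (82.4%), against 65.9% of all long genes. Its density was 6.29 regions per Mb (4.85 to 8.01), with 7.35 and 8.03 peaks per Mb in the lists of replicates 1 and 2. Robo2 and Robo1 carried 31 of its 65 regions. Without these receptors the other 15 genes had 4.38 per Mb (3.03 to 6.12), an interval that includes the 3.19 of all long genes. Unc5c held 8, with 720 and 787 at its strongest, and the ligand Slit2 5, with 93 and 67 at its strongest. Slit3 held 4, and Dcc, Epha6 and Ephb1 held none. Ligands and receptors of the Slit pathway were thus both among the hosts.

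Cyclic nucleotide and kinase signalling genes had 17 hosts of 24 (70.8%) and 4.47 regions per Mb (3.37 to 5.80). Prkg1, the cGMP-dependent kinase, held 8 regions, with 128 and 217 at the strongest. Pde4d, a cyclic AMP phosphodiesterase, held 7, with 612 and 742, and Pde4b 5, with 849 and 669. The strongest regions of Pde4d and Pde4b scored above that of Prkg1 in both replicates. Among phosphodiesterases with 3 regions, the strongest of Pde1a, with 272 and 223, also scored above it, and that of Pde11a, with 82 and 152, below it. Extracellular matrix genes had 12 hosts of 18 (66.7%) and 3.85 per Mb. Adamtsl1, Hmcn1 (hemicentin, 4 regions, strongest 282 and 454) and Ltbp1 (a latent TGF-beta binding protein, 3 regions, strongest 118 and 317) came first. Cytoskeleton and small GTPase genes had 25 hosts of 38 (65.8%) and 3.53 per Mb, led by Dnm3, Arhgap15 and Palld. The host shares of the matrix and cytoskeleton families were near the 65.9% of all long genes. The intervals of both families included the density of all long genes.

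Families known from synapses were less dense than all long genes, and so were the fragile site and growth factor lists. The RNA-binding list had a lower value too, but its interval included the density of all long genes. Gene length was not matched between families. Density was 2.1 per Mb in genes of 1000 kb or more, against 4.03 at 300 to 400 kb. The 59 synaptic and adhesion genes summed 56.8 Mb, and the 37 long transcription factors 18.7 Mb. The part of length in these differences was not tested. Synaptic and cell adhesion genes, the largest family with 59 long genes, had 44 hosts, which is 74.6% against 65.9% of all long genes. Their density was 1.69 regions per Mb (1.37 to 2.06), with 2.24 and 2.73 peaks per Mb in replicates 1 and 2. Ptprd and Tenm3, a teneurin, held 8 each, with 459 and 534 at the strongest of Ptprd and 204 and 212 at the strongest of Tenm3, and Ntm, a neurotrimin, held 5. Ion channels and neurotransmitter receptors had 26 hosts of 46 (56.5%) and 2.26 per Mb (1.71 to 2.93). Cacna2d3 and Kcnma1 held 21 of their 56 regions. Common fragile site genes had 17 hosts of 22 (77.3%) and 1.75 per Mb, with Macrod2, Auts2 and Fhit first. Growth factor, Wnt and hedgehog signalling genes had 11 hosts of 20 (55%) and also 1.75 per Mb (1.10 to 2.65). Among these Gpc3, a glypican that restrains hedgehog signalling and lies on the X chromosome, held 4 regions, the strongest with 119 and 206. Gpc6, another glypican, and Pdgfd, a platelet-derived growth factor, held 3 each, with 243 and 178 at the strongest of Gpc6 and 348 and 310 at the strongest of Pdgfd. Of the 6 long RNA-binding protein genes 4 were hosts (66.7%), with Celf2 at 4 regions. Density over that list was 1.88 per Mb (0.862 to 3.58), an interval that includes the 3.19 of all long genes. The families were drawn up with earlier results of these data known, 10 genes stand in more than 1 of them, and the differences were not tested.

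**Figure D5:**
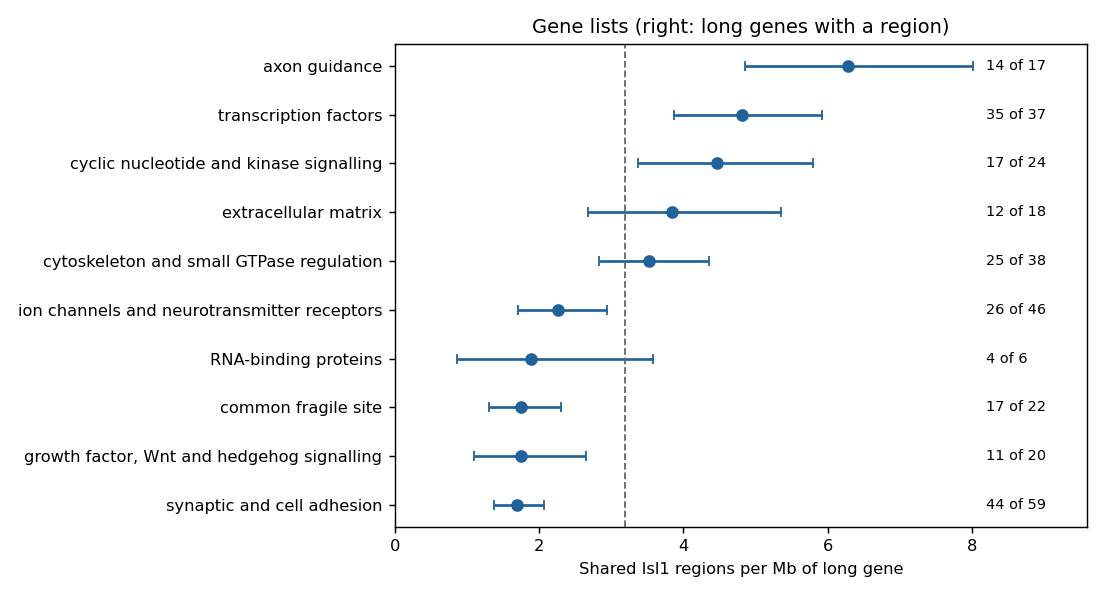
For each of 10 gene families the dot gives shared Isl1 regions per Mb of long gene, whiskers are exact Poisson 95% intervals, the dashed line is the 3.19 per Mb of all long genes, and the numbers on the right count hosts among the family's long genes. Axon guidance, transcription factor and cyclic nucleotide genes lie right of the line with intervals that do not reach it, and synaptic adhesion, fragile site, channel and growth factor genes lie left of it. The intervals cover counting error alone and regions gather in some genes, so an interval that misses the line is not a test. Without Robo1 and Robo2 the axon guidance interval, 3.03 to 6.12, includes the line.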

How the data were processed

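Isl1 ChIP-seq peak lists of 2 samples were used, grouped and numbered by their titles. The authors deposited 1 list per sample, in mm10, with a whole-number score per peak. Per the submitters' processing notes, the tools were bedtools, Trimmomatic 0.35, Bowtie2 2.2.6 and MACS2 2.1.0.20150731, and neither their order, their settings, the score's formula nor the calling threshold is given in the sources used here. Scores rank peaks within a list, and a ranking of regions used the lower of the 2 scores, which can weigh the replicates unequally.

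Shared regions, classes and intervals (95% confidence) were computed in Python 3.11.15 with numpy 2.4.6 and scipy 1.17.1, and checked on simulated positions with known answers. Figures used matplotlib 3.10.9. Genes came from a RefSeq table of GRCm38.p6 without exons, so exon, intron and UTR were not assigned. Strand came from the RefSeq table of start windows, which matched 425 of 557 long genes. Territory is the union of gene spans, while densities by gene length within long genes, by gene and by family divide by summed gene length. A region lying in several long genes counts for each. Without a genome sequence, the planned sequences of the strongest regions were replaced by start windows.

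Genes named are the 15 with most regions, the 10 densest with at least 4, the 12 strongest regions, the 10 longest genes, the 5 longest without a peak and without a shared region, the first 2 to 4 of each family, members nearest the limits and the 5 tightest groups; some genes under this rule are not reported here. Start-window, microRNA and neighbour genes, Pde1a, Pde11a and Slit3, and the genes named as family members without a region, were named after their values were seen. The regions, gene families and rules were chosen with earlier results of these data known. No test was made, since 2 libraries of 1 group allow none. Alternatives changed the overlap, centre, gene length limit, gene end distance, gene models, score threshold and replicate.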

Additional observations from a re-analysis of the deposited data

How the results depend on the processing

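Values depended mainly on the score threshold, on the gene length limit and on the use of 1 list alone. By construction all of these change how many regions and genes enter. With a lower score of at least 100, 406 regions remained in 225 host genes, 13.1% of shared regions, at 1.28 per Mb. There the Spearman correlation was 0.690, the median distance to a gene end 139 kb, the share with a neighbour within 10 kb 12.3%, and the median scores 185 in replicate 1 and 207 in replicate 2. At a lower score of at least 50 the values were 2.64 per Mb, 21.0% with a neighbour, and median scores of 113 and 137. A gene limit of 500 kb gave 537 regions, 7.86% of shared regions, in 171 host genes at 2.82 per Mb, with a median distance of 196 kb, and a limit of 200 kb gave 19.7% and 98.2 kb. Requiring a 50% reciprocal overlap gave 2.85 per Mb. Without either replicate, all peaks of the other list gave 1304 to 1547 regions, 4.12 to 4.89 per Mb and 30.2 to 34.7% with a neighbour within 10 kb, with median scores of 85 in replicate 1 and 90 in replicate 2. Of 211 alternative values, 151 stayed within their limits, and 93 of these were counts of single genes or families. The limits were wide for counts, so this is no measure of stability. At a gene limit of 200 kb, 549 host genes against 367 and 1344 regions against 1016 still counted as within them. None of the alternative values is a signed difference, so directions were not examined this way. At a lower score of at least 50, Dnm3 held 13 regions, Smyd3 14 and Robo2 15. Cep112 held 5 with reciprocal overlap. Library depth is unknown, and it limits which weak regions were called. No paired analysis was possible because only 1 group, Isl1_ChIP, had values to compare.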
